A study of Mus musculus with 2 samples.

Results

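The 10 immediate-early genes Fos, Fosb, Jun, Junb, Jund, Egr1, Ier2, Ier3, Atf3 and Dusp1 were examined in hepatocytes taken from perfused mouse liver. They were taken from a list of genes known to respond to tissue dissociation and sorting, and all 10 were found by symbol among the 43280 gene symbols counted. RNA-seq was performed on 1 library of mature hepatocytes (MHs) and 1 library of small hepatocytes (SHs), which the labels describe as intrinsic hepatocyte progenitors. Both came from the same C57BL6 mice, 20 weeks old per the labels and younger per the methods, and no mouse was treated. The methods name several mice and do not say whether their cells were pooled. Livers were digested by collagenase perfusion. MHs were pelleted at low speed and freed of dead cells by Percoll centrifugation and left unsorted. SHs came from the supernatant of that spin, were pelleted at a higher speed, passed through their own Percoll gradient, and were then sorted by FACS as CD31-, CD45- and EpCAM- cells that were ICAM-1+.

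Immediate-early genes are transcribed within minutes of a stimulus, from factors already present in the cell and without new protein synthesis. Their messages are short-lived. Fos and Fosb encode Fos proteins, which dimerize with the Jun proteins encoded by Jun, Junb and Jund to form the transcription factor AP-1, and Atf3 encodes a related stress-induced factor that can also pair with Jun proteins. Egr1 encodes a zinc finger transcription factor, Ier2 and Ier3 encode early response proteins, and Dusp1 encodes a phosphatase that inactivates MAP kinases and so limits the response. In liver, these genes respond to partial hepatectomy, and they also respond to enzymatic digestion. Neither library came from liver that had not been perfused, so the data show the levels after isolation and not how far isolation raised them.

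Counted reads came to 16979136 for MHs and 42356444 for SHs. Levels are given in RPM, the reads of a gene per 1000000 counted reads, and ratios of SHs over MHs were formed with 0.5 reads added to each count. With 1 library per condition there was no replicate and no test. Intervals are 95% Clopper-Pearson intervals and hold only the error of counting reads, which had no molecular identifiers. The libraries were both rich in hepatocyte transcripts, with 10 hepatocyte markers at 9.64% of all reads for MHs and 9.93% for SHs. Markers of endothelial cells, macrophages, other leukocytes and stellate cells summed to 135 RPM in MHs and 8.24 RPM in SHs.

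The stretch just upstream of the transcription start is shown for 4 genes: Fos, with the highest ratio of SHs over MHs, Atf3, with the next highest, Junb, and Dusp1, with the lowest ratio among the genes with enough reads. RefSeq promoter windows (build GRCm38.p6, from 250 bases before to 50 bases after the start) were at hand for 8 of the 10 genes. Egr1 and Ier2 had none. The window of Jund lies more than 1 kilobase upstream of the annotated gene used for its length. The windows of Atf3 and Dusp1 lie inside the annotated genes, which run on the minus strand from 191218039 and 26562128. Each sequence covers the 150 bases before the start, 5′ to 3′ on the strand of the gene. They lie at chr12:85473740-85473889 (Fos, plus strand), chr1:191183334-191183483 (Atf3, minus strand), chr8:84978749-84978898 (Junb, minus strand) and chr17:26508473-26508622 (Dusp1, minus strand). Capitals mark TGACG or CGTCA, the core of the cAMP response element, the whole element TGACGTCA, and the TATA box TATAAA.
Fos: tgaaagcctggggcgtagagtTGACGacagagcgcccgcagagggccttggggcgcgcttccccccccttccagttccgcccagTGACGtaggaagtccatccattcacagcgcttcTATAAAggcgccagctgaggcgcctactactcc
Atf3: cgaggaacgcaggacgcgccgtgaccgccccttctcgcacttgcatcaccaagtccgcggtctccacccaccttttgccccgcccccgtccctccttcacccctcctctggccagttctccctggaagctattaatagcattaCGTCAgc
Junb: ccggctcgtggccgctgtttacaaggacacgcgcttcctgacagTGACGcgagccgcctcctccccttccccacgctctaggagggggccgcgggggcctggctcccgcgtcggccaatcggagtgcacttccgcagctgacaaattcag
Dusp1: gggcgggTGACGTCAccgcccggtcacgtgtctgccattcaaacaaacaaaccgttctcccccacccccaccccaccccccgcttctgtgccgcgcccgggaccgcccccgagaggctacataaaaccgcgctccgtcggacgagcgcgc

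On either strand of the whole window, CGTCA was found in 5 of the 8 promoters, those of Fos, Fosb, Junb, Atf3 and Dusp1, and in 20.8% of all 32851 promoters. These 5 promoters belong to genes on both sides of a ratio of 1. The full element TGACGTCA, which contains CGTCA, was in the Dusp1 window, starting 143 bases before the start, and in 1.79% of all promoters. The TATA box TATAAA was in the windows of Fos and Junb, and in 13.6% of all promoters. In Fos it began 33 bases before the start, while in Junb it began at the RefSeq start and so lies outside the printed stretch. The CArG box, which the serum response factor binds, was in 0 of the 8 windows, against 1.63% of all promoters. The AP-1 site TGANTCA was also in 0 of the 8, against 7.81%. Egr1 and Ier2, which had no window, and sites outside the windows were not searched. The messages were also scanned for ATTTA, the core of the AU-rich elements of unstable RNAs. Using the longest 3′ UTR of each gene in the GENCODE M21 annotation, 9 of the 10 genes held ATTTA, Ier2 being the exception, against 65.3% of 20992 protein-coding genes. The median density was 2.89 per kilobase in these genes and 1.24 in all protein-coding genes, with a highest value of 8.16 for Ier3. These letter matches are descriptions and show neither binding nor decay.

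Immediate-early transcripts were abundant in both hepatocyte preparations. The 10 genes together took 29130 reads in MHs, 0.172% of the library (95% interval 0.170 to 0.174), and 80112 reads in SHs, 0.189% (0.188 to 0.190). The log2 ratio of the summed reads was 0.14 (0.12 to 0.16). Without Fos, it was 0.07 (0.05 to 0.09). Fos alone was thus the larger part of the excess in SHs.

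Levels of different genes were compared as reads per kilobase of exon per 1000000 counted reads (RPKM), using the union of annotated exons. Jun had the highest level in both libraries, 146.5 RPKM in MHs and 165 RPKM in SHs. Ier2 followed in both, with 144 and 132 RPKM. In MHs, the intervals of Jun and Ier2 overlapped, and those of neighbours in the order Junb, Dusp1, Jund and Fos also overlapped, at 86.9, 85.8, 82.8 and 82.1 RPKM. In SHs, Fos stood in place 3 with 125.4 RPKM, above Junb with 101, Jund with 89.6 and Dusp1 with 77.6, and no neighbouring intervals overlapped. Atf3 (31.0 and 40.1 RPKM) and Egr1 (24.6 and 22.9 RPKM) were lower than these 6 genes, and Fosb was lower still, with 6.0 and 6.28 RPKM. Ier3 was last, with 0.208 and 0.0835 RPKM. Counted genes with an annotated length numbered 39474, including genes with no read, which shared rank 18660 in MHs and 21880 in SHs. Among all 39474, Jun, Ier2, Junb, Dusp1, Jund and Fos were within the top 1.83% by RPKM in MHs, and 1.87% in SHs.

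**Figure D1:**
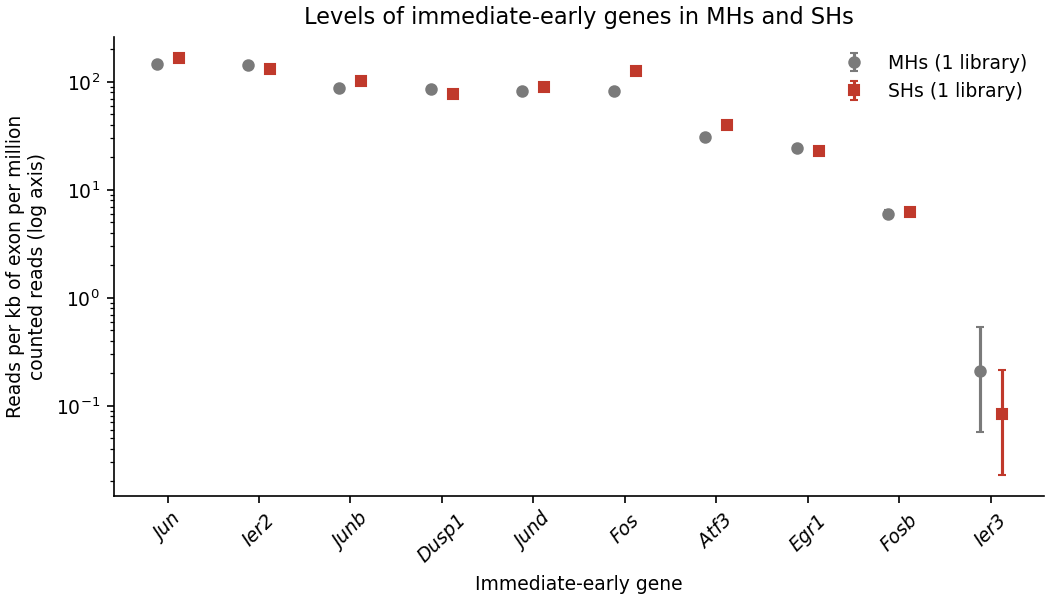
Level of each immediate-early gene in RPKM (log axis) in the library of MHs (grey circles) and of SHs (red squares), ordered by the level in MHs, with 95% counting intervals. In both libraries 8 genes lie above 20 RPKM, Fosb lies at 6.0 and 6.28 RPKM, and Ier3 lies under 1 RPKM.

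The place of some genes depended on the gene model. With the longest protein-coding transcript as the length, a choice made once the data had been seen, Dusp1 was at 143 RPKM in MHs and 129 in SHs, and Fosb at 9.90 and 10.4. Fos then stood second in SHs, at 140 RPKM. The ratio of a gene between libraries does not depend on its length.

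Among the AP-1 subunits, Jun family transcripts outnumbered Fos family transcripts per kilobase in both libraries. Of the summed RPKM of Fos, Fosb, Fosl1, Fosl2, Jun, Junb and Jund, the Jun family took 78.1% in MHs and 72.9% in SHs. Fos took 20.3% in MHs and 25.7% in SHs. Jun took 36.2% and 33.9%, Junb 21.5% and 20.7%, and Jund 20.5% and 18.3%. Fosb took 1.48% and 1.29%, and Fosl2, a Fos-related gene, 0.116% and 0.128%. Fosl1 had 0 reads in either library, where the detection floor of 3 reads was 0.177 RPM in MHs and 0.0708 RPM in SHs.

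**Figure D2:**
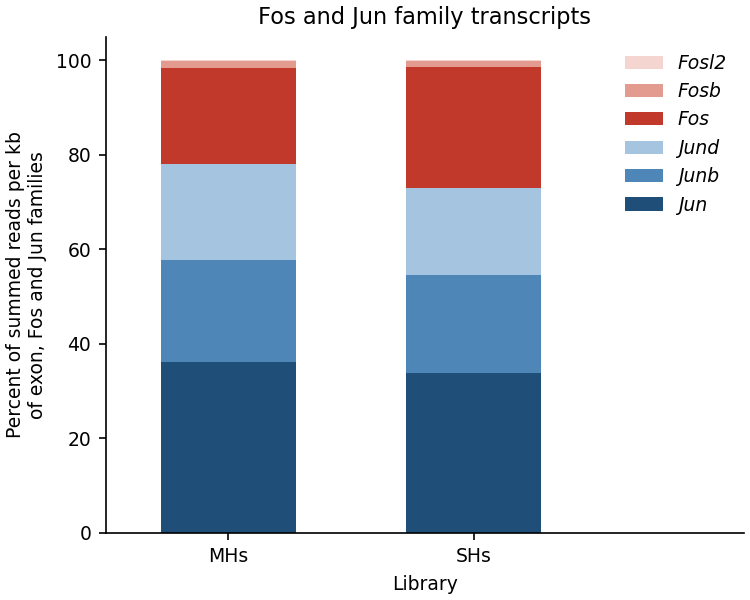
Share of each Fos and Jun family gene in their summed RPKM, in percent, for the library of MHs and that of SHs. Blue shades are Jun family genes and red shades Fos family genes, and the Fos share is 20.3% in MHs and 25.7% in SHs.

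The Fos family genes differed from each other. Fos (chromosome 12, 85473890 to 85477273 of mm10, plus strand) was read 3278 times in MHs and 12491 times in SHs, or 193 and 295 RPM. It was 1.53-fold higher in SHs, for a log2 ratio of 0.61 (95% interval 0.56 to 0.67), the highest of the 10 genes. Fosb (chromosome 7, 19302696 to 19310051, minus strand), its closest relative in the list, was read 636 times in MHs and 1660 times in SHs, or 37.5 and 39.2 RPM. The interval of its log2 ratio of 0.06 ran from -0.07 to 0.20 and so included 0. Within a library, where no scaling enters, Fos had 5.15 reads per read of Fosb in MHs and 7.52 in SHs, a log2 change of 0.55 (0.40 to 0.69). Intervals of such ratios between 2 genes are normal approximations on log counts.

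The Jun family genes had ratios close to each other. Jun (chromosome 4, 95049034 to 95052222, minus strand, 1 exon) was read 7931 times in MHs and 22352 times in SHs, or 467 and 528 RPM, for a log2 ratio of 0.18 (0.14 to 0.21). Junb (chromosome 8, 84974484 to 84978718, minus strand) was read 3396 and 9850 times, or 200.01 and 233 RPM, for a log2 ratio of 0.22 (0.16 to 0.27). Jund (chromosome 8, 70698949 to 70700616, plus strand, 1 exon), which among Jun genes is known for its steady expression, was read 2346 and 6332 times, or 138 and 149 RPM, for a log2 ratio of 0.11 (0.05 to 0.18). All 3 were higher in SHs, by 1.16-fold or less. Per Junb read there were 2.34 Jun reads in MHs against 2.27 in SHs. The interval of this log2 change, -0.11 to 0.03, included 0. In contrast, Fos reads per Jun read were 0.413 in MHs and 0.559 in SHs, a log2 change of 0.44 (0.37 to 0.50).

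Atf3 (chromosome 1, 191170296 to 191218039, minus strand) was read 1134 times in MHs and 3657 times in SHs, or 66.8 and 86.3 RPM. It was 1.29-fold higher in SHs, for a log2 ratio of 0.37 (0.27 to 0.47), the second highest value.

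The other measurable genes were slightly lower in SHs. Dusp1 (chromosome 17, 26505590 to 26562128, minus strand) was read 4822 times in MHs and 10881 times in SHs, or 284 and 257 RPM, for a log2 ratio of -0.14 (-0.19 to -0.10). Ier2 (chromosome 8, 84661331 to 84662852, minus strand, 1 exon) was read 3713 and 8540 times, or 219 and 202 RPM, for a log2 ratio of -0.12 (-0.17 to -0.06). Egr1 was read 1870 and 4345 times, or 110.1 and 103 RPM, for a log2 ratio of -0.10 (-0.18 to -0.02). Their folds of SHs over MHs were 0.905, 0.922 and 0.931. When the library totals were taken without the 10 most abundant genes, the interval of Egr1 reached 0.01 and so included 0, while Dusp1 and Ier2 stayed on the lower side. Set against Dusp1, the ratio of Fos reads to Dusp1 reads was 0.680 in MHs and 1.15 in SHs, a 1.69-fold difference. Against Egr1, it was 1.75 and 2.87.

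Ier3 (chromosome 17, 35821684 to 35822923, plus strand), which encodes an early response protein linked to cell survival, was close to the detection limit. It was read 4 times in MHs and 4 times in SHs, or 0.236 and 0.0944 RPM. The fold was 0.401, with an interval of 0.0747 to 2.15, and no difference was detectable at this depth. The level of Ier3 per kilobase was thus far from that of the other 9 genes in both libraries. Flot1, the neighbour that starts 307 bases after the end of Ier3, was read 160 and 434 times.

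**Figure D3:**
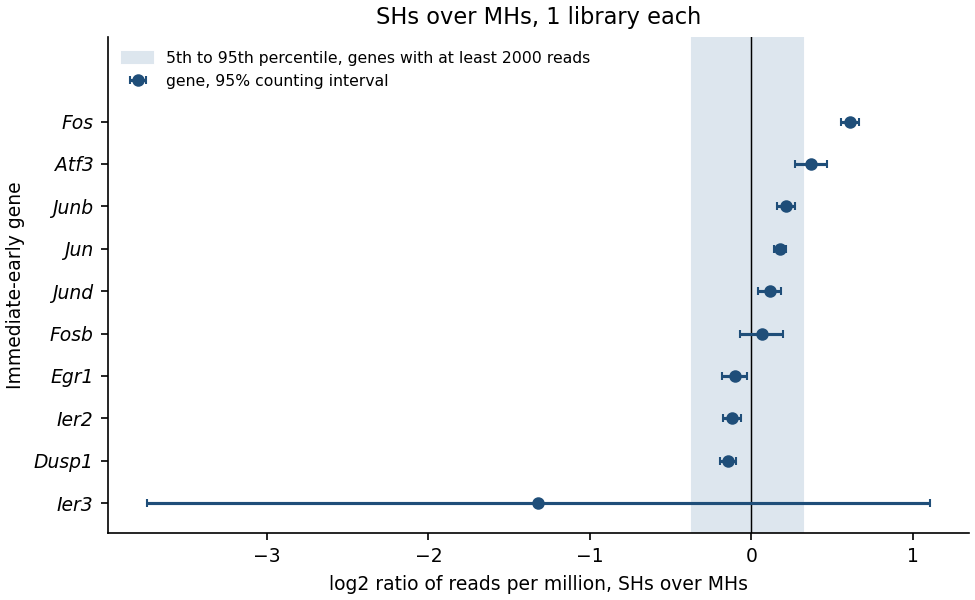
Log2 ratio of RPM in SHs over MHs for the 10 immediate-early genes, with 95% counting intervals. The shaded band spans the 5th to 95th percentile, -0.37 to 0.32, of the 2966 genes that reached 2000 reads in sum, and Fos and Atf3 lie above it at 0.61 and 0.37. Ier3, with 8 reads in all, has the wide interval.

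These values were set beside all genes. Of the 10 genes, 9 reached 10 reads when the libraries were summed and Ier3 did not. Of these 9, 0 were 2-fold or more lower and 0 were 2-fold or more higher by an interval that kept to that side, against 4.46% and 2.00% of the 15521 genes that reached 10 reads. The interval lay wholly over 0 for 5 genes (Fos, Atf3, Junb, Jun and Jund), wholly under 0 for 3 (Dusp1, Ier2 and Egr1), and included 0 for Fosb. Across all genes it lay over 0 for 16.8% and under 0 for 15.5%. These shares grow with depth, and all 9 genes were deeply read. Among the 2966 genes with at least 2000 reads, a minimum chosen after the data were seen, the interval lay over 0 for 37.1% and under 0 for 26.0%. With counts this deep, an interval off 0 was therefore common and could go with a small ratio.

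By size, Fos stood apart from most deeply read genes. Fos was the single gene of the 9 that was at least 1.5-fold higher in SHs, as were 0.809% of the 2966 genes, and 0 of the 9 were at least 1.5-fold lower, against 2.12%. A log2 ratio as high as that of Fos was found for 0.742% of the genes that reached 2000 reads, and one as high as that of Atf3 for 3.27%. By the same count, 14.03% were as high as Junb, 20.0% as high as Jun and 32.1% as high as Jund. At the lower end, 17.7% of these genes were as low as Dusp1, 21.6% as low as Ier2 and 23.1% as low as Egr1. The median log2 ratio of the 9 genes was 0.11, beside 0.02 for the 15521 genes and 0.03 for the 2966 deeply read genes. Apart from Fos and Atf3, the genes were thus within the range that most genes of their depth had.

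**Figure D4:**
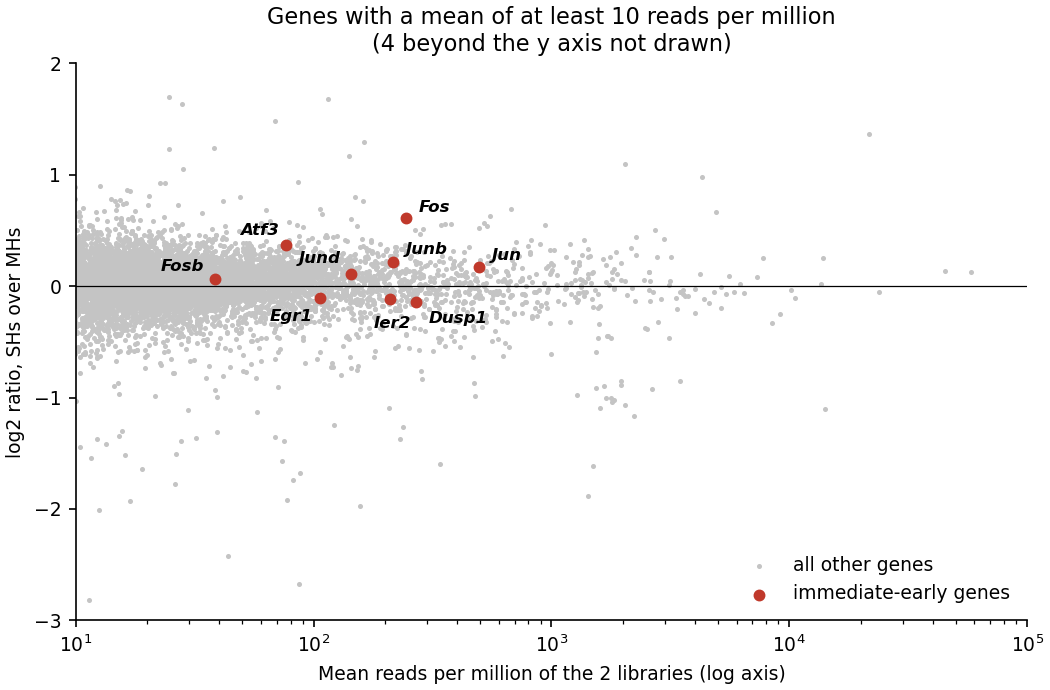
Log2 ratio of SHs over MHs against the mean RPM of the 2 libraries (log axis) for the 6734 genes with a mean of at least 10 RPM, of which 4 lie beyond the vertical axis. Grey points are genes and the 9 red points are immediate-early genes, among which Fos sits at the upper edge of the cloud and the others within it.

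Overlapping and neighbouring genes can share reads where the counting does not use strand, which the sources do not state. Exons of Junb overlap those of Prdx2 on the opposite strand by 173 bases. Prdx2, which encodes a peroxidase, was read 1343 and 3910 times, for a log2 ratio of 0.22, the value of Junb. The antisense gene Junos overlaps Jun by 232 exon bases and was read 18 and 35 times, rarely beside Jun. Gm11175, antisense to Jund, had no read in MHs and 1 in SHs. Ergic1 overlaps Dusp1 by 11 exon bases and had a log2 ratio of 0.11 (0.03 to 0.20), whereas Dusp1 had -0.14. Fam71a, which lies 5479 bases from Atf3 on the same strand, was read 6 and 469 times, for a log2 ratio of 4.86 (3.84 to 6.42) beside 0.37 for Atf3. The counts are totals per gene symbol, so reads of the message and of the unspliced gene cannot be told apart for any gene. In a gene of a single exon, such as Jun, Jund and Ier2, the reads themselves also cross no splice junction.

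Other members of the early response were examined by list. Of 106 genes in 6 lists, 88 had at least 10 reads, with a median log2 ratio of 0.07. The interval lay over 0 for 30 of them and under 0 for 21, against 16.8% and 15.5% of the 15521 genes with at least 10 reads. Of the 88, 4 were at least 2-fold higher in SHs and 3 at least 2-fold lower, against 2.00% and 4.46% of those genes. The lists were not matched to all genes in depth, with which the shares of intervals off 0 grow. The list of other AP-1 and Maf family genes had 8 of 13 genes with at least 10 reads and a median of 0.26, with 5 intervals over 0 and 1 under 0, beside the same 16.8% and 15.5%. Among its genes with the most reads, Mafg and Atf2 had log2 ratios of -0.20 and 0.32. Fosl2 was read 77 and 256 times, for a log2 ratio of 0.41 (0.04 to 0.80). Maff, a small Maf factor without a transactivation domain, was read 62 and 308 times, for a log2 ratio of 0.98 (0.60 to 1.41).

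Other early transcription factors lay on both sides of 0. Of 19 genes, 16 had at least 10 reads, with a median of 0.02. The interval lay over 0 for 7 of the 16 and under 0 for 3, against 16.8% and 15.5% of all genes. The genes with the most reads were Bhlhe40, Cebpb and Nr4a1, with log2 ratios of 0.06, -0.32 and 0.23. Egr2, a relative of Egr1, was read 9 and 49 times, for a log2 ratio of 1.06 (0.09 to 2.34). Irf1, which encodes an interferon-responsive factor, was read 278 and 1316 times, for a log2 ratio of 0.92 (0.74 to 1.12). Nr4a2 was read 10 times in MHs and 8 times in SHs, for a log2 ratio of -1.62 (-3.18 to -0.15). Klf4 had 7 reads in MHs and 0 in SHs.

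The feedback regulators held 2 of the 4 genes that were at least 2-fold higher in SHs. Of 26 genes, 23 had at least 10 reads, with a median of 0.10, 7 intervals over 0 and 4 under 0, against 16.8% and 15.5% of all genes. At least 2-fold higher were 2.00% of all genes. Socs3, which encodes an inhibitor of cytokine signalling through STAT3, was read 617 times in MHs and 4292 times in SHs, or 36.3 and 101 RPM, for a log2 ratio of 1.48 (1.36 to 1.60). Gadd45b, a stress-response gene, was read 32 and 293 times, for a log2 ratio of 1.86 (1.35 to 2.45). Gadd45g was higher too, with a log2 ratio of 0.65 (0.57 to 0.73). Nfkbia, which encodes an inhibitor of NF-kB and is one of its targets, was read 314 and 1203 times, for a log2 ratio of 0.62 (0.44 to 0.80). The genes with the most reads were Errfi1, a feedback inhibitor of the EGF receptor, Zfp36, which binds AU-rich elements, and Btg2, with log2 ratios of 0.11, 0.01 and -0.43. Dusp6, which encodes a phosphatase that acts on ERK kinases, had -0.47 (-0.57 to -0.37), lower than Dusp1.

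Among other early response genes, 11 of 15 had at least 10 reads, with a median of 0.02, 3 intervals over 0 and 4 under 0, against 16.8% and 15.5% of all genes. Cxcl1, which encodes a chemokine that attracts neutrophils, was read 197 times in MHs and 1601 times in SHs, or 11.6 and 37.8 RPM, for a log2 ratio of 1.70 (1.49 to 1.92). Cyr61, a target of YAP, was read 766 and 1164 times, for a log2 ratio of -0.72 (-0.85 to -0.58), and Ctgf, another YAP target, had 11 reads in MHs and 1 read in SHs. Plk3, Sik1 and Mcl1, the genes with the most reads here, had log2 ratios of 0.10, 0.28 and 0.03. Cxcl1, with the highest ratio of this list, and Cyr61, chosen after its value was seen, were thus on opposite sides, with intervals far apart.

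The kinases and transcription factors that act upstream had a median log2 ratio of 0.14, with 12 genes above 0 and 6 below. Of 21 genes, 18 had at least 10 reads, with 6 intervals over 0 and 4 under 0, against 16.8% and 15.5% of all genes. Among the genes with the most reads, Map2k2, which encodes a kinase that activates MAP kinases, and Mapk14, which encodes a stress-activated MAP kinase, both had a log2 ratio of 0.24. Srf, which encodes the serum response factor, and its partner gene Elk4 were lower in SHs, with -0.27 (-0.45 to -0.09) and -0.48 (-0.59 to -0.36). Elk3, a relative of Elk4, was read 35 times in MHs and 2 times in SHs. It was 35.4-fold lower with a counting interval of 11.2 to 375. Elk1, another relative, was read 48 and 136 times, for a log2 ratio of 0.17 (-0.30 to 0.69). The part of other liver cells in these ratios was not tested.

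Heat shock genes, another group that responds to cell isolation, gave a median log2 ratio of -0.03 over 12 genes, with 2 intervals over 0 and 5 under 0, against 16.8% and 15.5% of all genes. Hsp90ab1, Hspa8 and Hspd1, the genes with the most reads, had log2 ratios of 0.14, -0.01 and 0.11. Hspa1a, an inducible heat shock gene, was read 54 and 77 times, for a log2 ratio of -0.81 (-1.33 to -0.28). Hspa1a had the lowest ratio of this list and Fos the highest of the immediate-early genes. Their opposite sides therefore do not compare the groups.

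**Figure D5:**
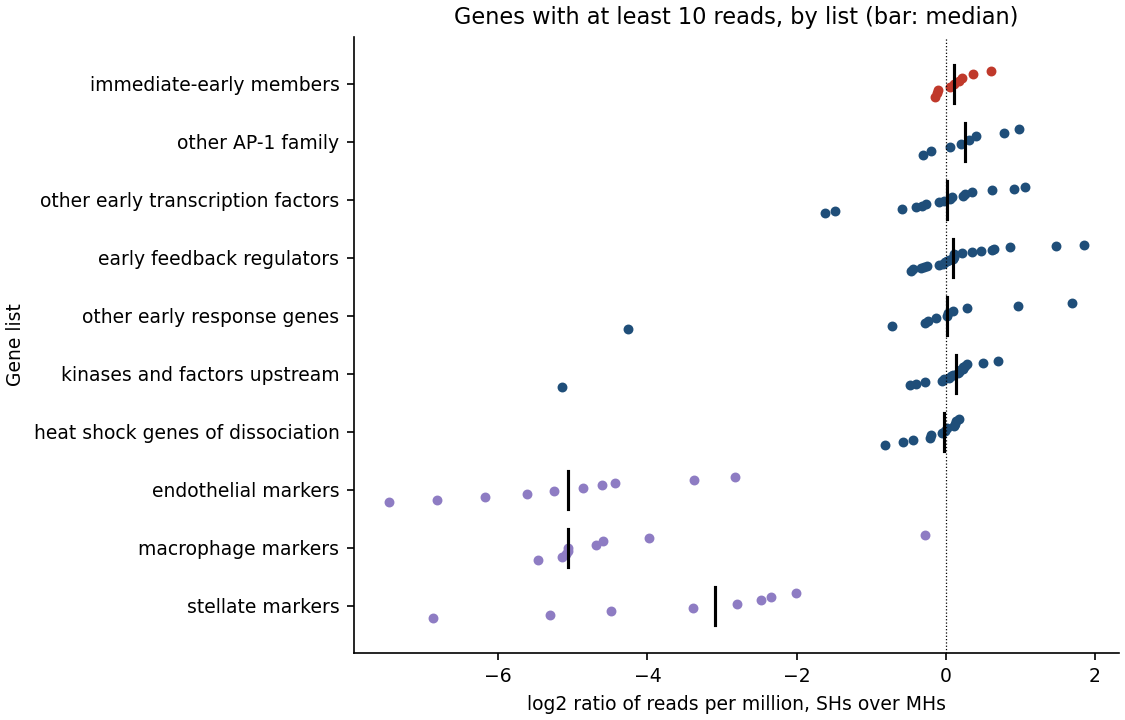
Log2 ratio of RPM in SHs over MHs for each gene with at least 10 reads, by list, with a black bar at the median of the list. The medians of the immediate-early genes (0.11) and of the 6 other response lists lie between -0.03 and 0.26, and those of the endothelial, macrophage and stellate markers lie at -5.06, -5.06 and -3.09.

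The libraries differed in the markers of other liver cells, which also express immediate-early genes. The 10 endothelial markers summed to 90.8 RPM in MHs against 4.65 RPM in SHs, and all 10 were at least 2-fold lower. Macrophage markers summed to 22.4 and 1.02 RPM, with 8 of 9 at least 2-fold lower, and stellate markers to 21.2 and 2.31 RPM, with 8 of 8 lower. The endothelial gene Lyve1 was at 14 reads in MHs but 0 in SHs, and the macrophage gene Marco had 3 and 0, too few to compare. Stab2, an endothelial gene, kept 119 reads in SHs beside 338 in MHs, or 2.81 and 19.9 RPM. Cd68, a macrophage gene, had 15 reads in SHs beside 7 in MHs, or 0.354 and 0.412 RPM. The interval of its log2 ratio of -0.27 ran from -1.60 to 1.32 and so included 0. Markers of other leukocytes summed to 11 reads in either library, or 0.648 RPM in MHs and 0.260 RPM in SHs. Cholangiocyte markers summed to 21.4 and 24.6 RPM, while Krt7 and Krt19 had 1 read each in both libraries. In bulk samples, fewer cells of a type and less RNA per cell cannot be told apart. The 10 immediate-early genes summed to 1716 RPM in MHs against 1891 RPM in SHs. The part of the other cells in these levels was not tested. Sorting, the handling steps and the cell type also differed between SHs and MHs and cannot be told apart with 1 library per condition.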

How the data were processed

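The authors deposited, for 1 library of MHs and 1 of SHs, the number of reads counted on each gene symbol, without normalization. Libraries of poly(A) RNA were run on an Ion Proton. Per the methods, reads were trimmed and aligned to mm10 in CLC Genomics Workbench. The program, annotation and strand setting behind the deposited counts are not given in the sources used here.

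Ratios, intervals and RPKM were computed with numpy 2.4.6, scipy 1.17.1 and pandas 2.3.3 (Python 3.11.15). Exon lengths and coordinates came from GENCODE M21 (mm10). Medians and counts took genes that reached 10 reads in the sum of the libraries. The depth was 16979136 reads in MHs and 42356444 in SHs. Alternatives used edgeR 4.0.16 (TMM) and DESeq2 1.42.0 (size factors) for scaling only. The calculation was tested on simulated counts.

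The members and lists were chosen with earlier results of these data known. Named were the 10 members and, from each list, genes at least 2-fold different with at least 50 reads and the 3 genes with the most reads. Some genes that this rule would name are not reported here. Fosl1, Fosl2, Maff, Irf1, Nr4a2, Klf4, Gadd45g, Nfkbia, Dusp6, Cyr61, Ctgf, Srf, Elk1, Elk3, Elk4 and Hspa1a were chosen after their values were seen. The minimum of 2000 reads, the sums without Fos and the other gene length were also chosen after seeing the data.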

Additional observations from a re-analysis of the deposited data

How the results depend on the processing

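No paired analysis was possible because each condition had a single library. The median of all genes moved by 0.01 on the log2 scale with edgeR's TMM factors, by 0.01 with DESeq2 size factors, and by 0.03 when totals left out the 10 most abundant genes. Under these scalings, with 2 reads added, and with SHs thinned to the depth of MHs, Fos stayed between 0.59 and 0.64, and the 10 single-gene ratios kept their direction. Totals without the 10 most abundant genes left 2 members with an interval under 0, the loss being Egr1. At a threshold of 1.5-fold, 1 member was higher in SHs, namely Fos. The summed share of the members came to 0.218% for MHs and 0.245% for SHs when these abundant genes were left out, by construction of the smaller total. With the other gene length, the levels of Dusp1 and Fosb moved by more than 1.5 times. Depth limited Ier3 and the low genes of the lists.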

Other observations

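Both lists below were drawn up after the values of Socs3 and Cxcl1 had been seen, and are descriptions of 2 libraries. One holds targets and subunits of NF-kB, a factor that acts on Cxcl1, without those already in other lists. Left out were, for example, Gadd45b, Cxcl1, Irf1, Nfkbia, Nfkbiz and Tnfaip3, with log2 ratios of 1.86, 1.70, 0.92, 0.62, 0.22 and -0.29. The list, and so its median, does not cover these genes. Of its 28 genes, 20 had at least 10 reads, with a median log2 ratio of -0.13, 4 intervals over 0 and 4 under 0, against 16.8% and 15.5% of all genes. The highest ratio was that of Nfkbie, 0.62 (-0.21 to 1.62), and the part of NF-kB in the ratio of Cxcl1 was not tested. Birc3 and Sod2 had log2 ratios of 0.52 (0.22 to 0.83) and 0.24 (0.17 to 0.31), whereas the acute-phase genes Saa1 and Saa2 had -1.09 (-1.15 to -1.04) and -1.13 (-1.23 to -1.02). Saa1 and Saa2 are close paralogs, so the division of reads between them is uncertain.

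Relatives of Socs3 and other genes of cytokine feedback had a median of 0.11 over the 12 of 13 genes with at least 10 reads. Cish and Socs7 had 0.30 (0.14 to 0.46) and 0.30 (0.06 to 0.55), while Socs2, which limits growth hormone signalling, had -0.73 (-1.06 to -0.39) and Socs4 had -0.44 (-0.64 to -0.23). Stat3, which encodes the factor that Socs3 restrains, had 0.33 (0.24 to 0.43). The highest ratio in this list was 0.34, that of Ptpn2, beside 1.48 for Socs3.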
